A study of Mus musculus with 12 samples.

Results

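The genes described here are Myc and a set of ribosome biogenesis factors, measured in 4T1 cells, a transplantable mouse mammary carcinoma line of BALB/c origin that is labelled triple-negative. They were chosen by symbol from known functions, though with earlier results of these data known. All 37 were found among the 40406 entries left in the count table after repeats were removed and among the 15538 genes tested. By role they were Myc itself, 2 catalytic subunits of RNA polymerase I, 8 small nucleolar ribonucleoprotein (snoRNP) and nucleolar phosphoprotein genes, 11 genes of the small-subunit processome and of small-subunit assembly, and 15 genes of large-subunit assembly. RNA was sequenced after removal of ribosomal RNA from 4 groups of 3 cultures: integrin β3 knockout cells with docetaxel, the knockout cells with DMSO, wild-type cells with docetaxel, and wild-type cells with DMSO. Docetaxel was given at 10 nM for 24 h, or DMSO, its vehicle, for as long, and every culture then recovered for 48 h without drug, so that no value was taken during exposure. The labels call the cultures biological triplicates of 1 line, so p-values measure the spread between cultures, and the way the knockout was made, and whether from 1 clone, was left unstated in the sources used here. The design asks what docetaxel does to these transcripts in each genotype, how the genotypes differ in each treatment, and whether the docetaxel effects differ.

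Ribosomes are built mainly in the nucleolus, where RNA polymerase I transcribes a long precursor of the ribosomal RNAs. SnoRNPs guide the chemical modification of this precursor, the processome and later factors cut it and fold the small subunit, and a separate set of factors builds the large subunit. MYC, a transcription factor that pairs with MAX, is known to drive many genes of this pathway and to bind the sequence CACGTG, an E-box. Docetaxel stabilises microtubules and blocks mitosis.

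Total counts per library ran from 28729118 to 40801679, and none of the 37 genes had fewer than 262 counts in any library. All 7 epithelial markers were at 5 CPM (counts scaled to a common library total) or more in every library, with the keratin gene Krt8 at 564 to 813 CPM. None of 8 leukocyte markers was at that level in all libraries, Ptprc was at 0 to 0.252 CPM, and the list summed to 4.25 to 5.81 CPM in knockout-labelled docetaxel, 3.96 to 8.34 CPM in knockout-labelled DMSO, 4.29 to 5.68 CPM in wild-type docetaxel and 3.17 to 4.56 CPM in wild-type DMSO libraries. None of 5 endothelial markers reached it either, and their sum was at most 0.768 CPM. Of 5 fibroblast markers only Pdgfra did, at 11.0 to 29.7 CPM and highest in wild-type DMSO libraries, while Lum was at 0 throughout, and its part in any result was not tested. The targeted gene Itgb3 had 59.3, 64.6 and 63.4 CPM in docetaxel-treated and 62.4, 66.7 and 65.0 CPM in DMSO-treated knockout-labelled cultures, and 80.6, 88.7 and 80.0 CPM in docetaxel-treated and 71.4, 60.1 and 66.1 CPM in DMSO-treated wild-type cultures. Under DMSO its transcript gave no separation of the genotypes, so the cells are called knockout-labelled, and the direction of each genotype comparison depends on their labels. Wild-type DMSO library 1 is named a knockout in its free-text description but wild type in its title and genotype label. For some of the markers it lay with its labelled group. Pdgfra was at 26.9 to 29.7 CPM in wild-type and 13.5 to 16.5 CPM in knockout-labelled DMSO libraries. In the same order Krt19 was at 185 to 241 and 359 to 403 CPM, and Epcam at 347 to 433 and 494 to 553 CPM. Krt8 was at 564 to 695 and 737 to 813 CPM, and Krt14 at 38.2 to 42.7 and 47.5 to 54.0 CPM. The epithelial markers Krt18, Krt7 and Cdh1 overlapped between these groups. Wild-type DMSO library 2 stood apart, with 3.98% of its counts in the noncoding feature Gm23935 against 0.137% to 1.62% in the rest. It was the lowest of all libraries for 27 of the 37 genes, against 15.4% of all tested genes. Wild-type DMSO library 3 was the lowest for a further 8, against 14.4% of all tested genes. The main median log2 changes that rest on these libraries are given with and without each of them. The main counts of calls are given with and without library 2.

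Levels per transcript length spread widely among the 37 genes. Npm1, which encodes the abundant nucleolar chaperone nucleophosmin, had the highest level, with a mean of 707 RPKM (CPM per kilobase of exon) over all libraries, followed by Myc at 152 and nucleolin (Ncl) at 122 RPKM. The median gene was at 17.0 RPKM, 8 genes were below 10 RPKM, and Wdr12, a subunit of the PeBoW complex of large-subunit assembly, was the lowest at 3.85 RPKM. In the mean of each group, 27 of the 37 genes were highest in knockout-labelled docetaxel cells, which held the highest mean of 23.9% of all tested genes. In wild-type DMSO cells, 35 of the 37 had their lowest mean, against 31.3% of all tested genes. The count was 35 without wild-type DMSO library 1 and 31 without wild-type DMSO library 2 (33.6% and 31.4% of all tested genes). With all libraries the exceptions were Npm1, which had its highest means in the DMSO groups, and Nob1, the endonuclease that cuts the end of the small-subunit RNA, which was lowest in knockout-labelled docetaxel cells. Relative to their own means over the libraries, the 37 genes averaged 0.17, 0.25 and 0.18 on the log2 scale in the knockout-labelled docetaxel libraries and 0.19, −0.07 and −0.02 in the knockout-labelled DMSO libraries. The average was 0.14, 0.10 and 0.12 in wild-type docetaxel libraries, against −0.11, −0.60 and −0.36 in wild-type DMSO libraries. The wild-type DMSO libraries were thus the lowest and the most unequal, and knockout-labelled DMSO library 1 lay with the docetaxel libraries. Genes also moved apart within a group: in the knockout-labelled docetaxel cultures, Heatr1 had 94.1, 71.6 and 78.5 CPM and Utp20 167, 120.0 and 128 CPM, highest in library 1, whereas fibrillarin (Fbl) had 128, 189 and 164 CPM and Noc2l 104, 158 and 134 CPM, lowest in library 1. Library 1 of the wild-type docetaxel cultures showed the same order for Heatr1, at 96.0, 71.4 and 80.9 CPM, and for Fbl, at 139, 169 and 167 CPM.

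**Figure D1:**
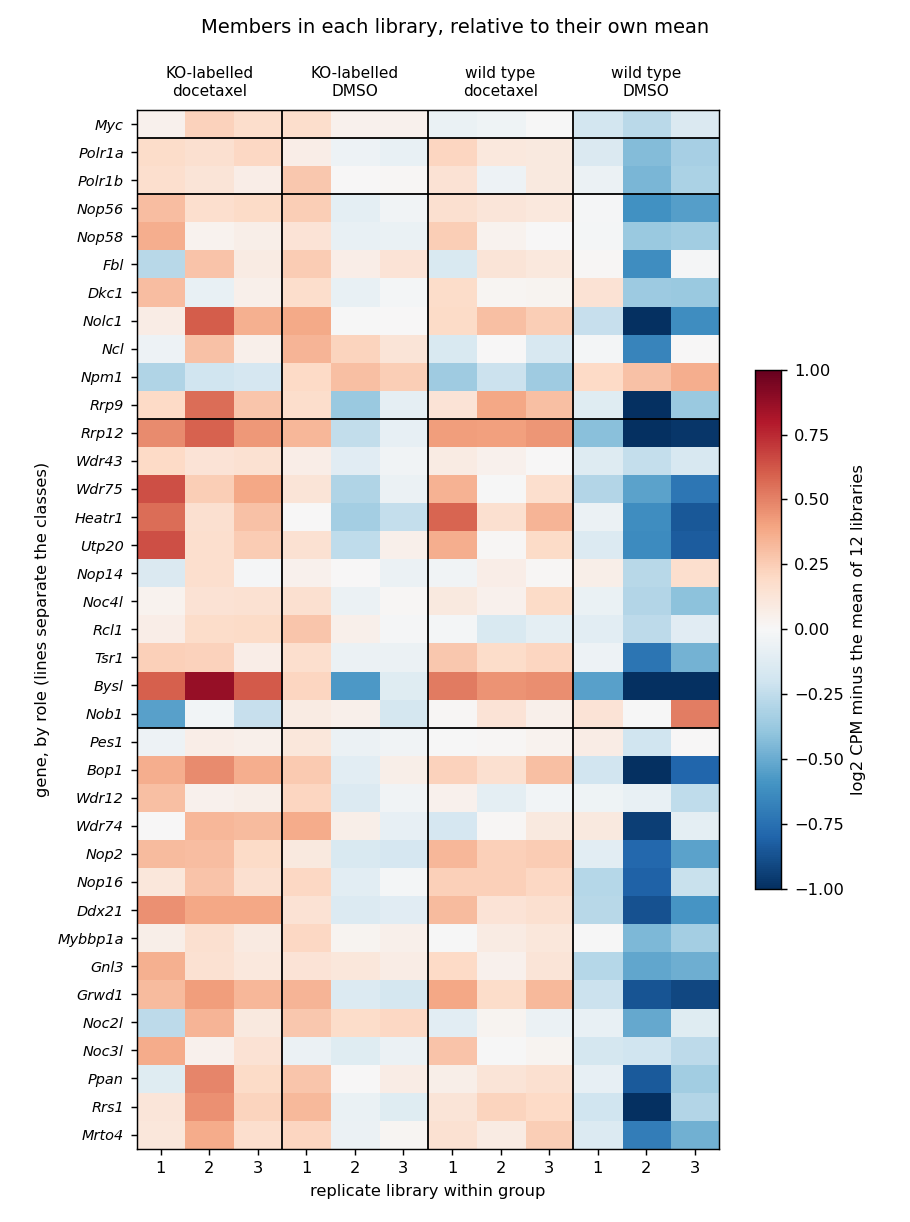
Each cell is the log2 CPM of 1 gene (down the page, by role) in 1 library (across, in 4 groups of 3), minus the mean of that gene over the 12 libraries, and values beyond −1 or 1 are drawn in the end colours. The wild-type DMSO columns are the bluest, above all library 2, and Npm1 and Nob1 run against the other rows.

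The genes lie on 16 chromosomes. With genes of small noncoding RNAs left aside, here and for the opposite strand, none overlaps another annotated gene on its own strand. Of the 37, 8 hold snoRNA genes on their own strand, 23 in all, with 5 in Nop56, 4 in Nop58, 3 each in Ncl, Wdr43 and Gnl3, 2 each in Tsr1 and Ppan, and 1 in Dkc1. A gene on the opposite strand overlaps 16 of them, among them Ccnd3 at Bysl, Mroh1 and Scx at Bop1, Pbrm1 at Gnl3 and Lgals8 at Heatr1. The strand setting of the counting was not given in the sources used here, so reads of these pairs cannot be told apart. The 2 named pseudogenes of Mrto4 could share reads with it. Only pseudogenes carrying a gene's own symbol were searched for, so those under other names were not counted. Transcript GC content had a median of 51.2% (40.4% to 59.9%), against 50% for tested protein-coding genes.

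Promoters, taken as 250 bases before to 50 bases after the annotated start in RefSeq on GRCm38.p6, were found for 31 of the 37 genes, and not for Myc, Fbl, Npm1, Rrp12, Bop1 and Rrs1. The E-box CACGTG, which is its own reverse complement, was present in 7 of the 31 (22.6%), against 11.5% of the 9832 promoters of tested protein-coding genes and 8.09% of all 27025 promoters in the table. The related sequence CACGCG, read on either strand, was in 8 of the 31 (25.8%), against 20.0% of tested protein-coding genes and 10.5% of all. A match describes the letters only. The 7 E-boxes are shown because CACGTG is the sequence MYC and MAX are known to bind, each with up to 10 bases on either side, 5′ to 3′ on the strand of the gene and with the E-box in capitals. In Nop2 the E-box begins 60 bases before the start, and in the other genes it begins at base 3 to base 41, counted from the start as base 1.
Grwd1 (chr7:45830740-45830765, minus strand): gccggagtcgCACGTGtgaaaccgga
Mybbp1a (chr11:72441357-72441376, plus strand): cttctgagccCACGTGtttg
Nop2 (chr6:125131813-125131838, plus strand): gtccctggatCACGTGtgttccggtg
Pes1 (chr11:3963967-3963992, plus strand): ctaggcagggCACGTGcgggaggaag
Tsr1 (chr11:74898094-74898119, plus strand): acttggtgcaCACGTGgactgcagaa
Utp20 (chr10:88826765-88826787, minus strand): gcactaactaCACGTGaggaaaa
Wdr43 (chr17:71616222-71616247, plus strand): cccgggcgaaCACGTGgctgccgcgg
The 150 bases before the start of Bysl, the gene with the largest docetaxel fold change below, hold no CACGTG, and those of Nop2 hold the E-box above. Capitals mark CACGCG in Bysl and CACGTG in Nop2.
Bysl (chr17:47611493-47611642, minus strand): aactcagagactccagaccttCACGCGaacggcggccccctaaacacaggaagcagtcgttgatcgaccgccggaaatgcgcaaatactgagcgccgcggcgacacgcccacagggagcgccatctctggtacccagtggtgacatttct
Nop2 (chr6:125131733-125131882, plus strand): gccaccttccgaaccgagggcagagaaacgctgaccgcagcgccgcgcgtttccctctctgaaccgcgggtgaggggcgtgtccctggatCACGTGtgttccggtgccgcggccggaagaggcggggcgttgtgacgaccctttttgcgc

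Myc itself (ENSMUSG00000022346.15; chr15:61985391-61990374, plus strand, GRCm38) had 424, 483 and 464 CPM in the docetaxel-treated knockout-labelled cultures and 464, 423 and 424 CPM in the DMSO-treated knockout-labelled cultures. It had 392, 398 and 410.3 CPM in the docetaxel-treated wild-type cultures and 361, 341 and 372 CPM in the DMSO-treated wild-type cultures. The wild-type docetaxel libraries lay above all 3 wild-type DMSO libraries, and both knockout-labelled groups overlapped each other. Docetaxel gave a log2 change of 0.06 ± 0.08 (SE; 95% interval −0.10 to 0.23) in knockout-labelled cells and 0.16 ± 0.08 (−0.01 to 0.33) in wild-type cells, and neither passed the test (edgeR's quasi-likelihood test with Benjamini-Hochberg adjustment over all tested genes, two-sided, called at 0.05; adjusted p = 0.629 and 0.142). Under DMSO, Myc was higher in knockout-labelled than in wild-type cells by 0.29 ± 0.08 on the log2 scale (edgeR adjusted p = 0.0234). The Myc call failed without knockout-labelled DMSO library 1 (adjusted p = 0.118), knockout-labelled DMSO library 3 (0.0534) or wild-type DMSO library 2 (0.0814), and when only the libraries of the comparison were used (0.0662). After docetaxel the difference was 0.19 ± 0.08 (edgeR adjusted p = 0.203), with every knockout-labelled library above every wild-type library.

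In wild-type cells, docetaxel was followed by higher levels of most of these genes: 25 of the 37 rose, 1 fell and 11 did not pass the test. Over all tested genes 28.4% were called, 14.5% higher and 13.8% lower. In knockout-labelled cells 3 of the 37 rose and 1 fell, where 9.09% of all tested genes rose and 7% fell, so the share of these genes that rose was near the background. The median log2 fold change of the 37 was 0.16 in knockout-labelled cells and 0.44 in wild-type cells, and that of all tested genes was 0.00 and 0.02. In knockout-labelled cells the median of the 37 was 0.10 without knockout-labelled DMSO library 2 and 0.23 without knockout-labelled DMSO library 1. In wild-type cells it was 0.52 without wild-type DMSO library 1, 0.34 without wild-type DMSO library 2 and 0.41 without wild-type DMSO library 3. The docetaxel libraries lay wholly above the DMSO libraries for 12 of the 37 in knockout-labelled cells (background 19.2%) and for 25 in wild-type cells (background 21.2%), and wholly below for Npm1 alone in each genotype (background 18.5% and 19.3%). Wdr75, Bysl and Ddx21 rose in both genotypes, Npm1 fell in both, 22 genes were called higher in wild-type cells alone, and 11 were called in neither. In RNA from whole cultures, a change in how many cells express a gene and a change per cell cannot be told apart. Being called in 1 genotype and not in the other is no test of a difference.

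**Figure D2:**
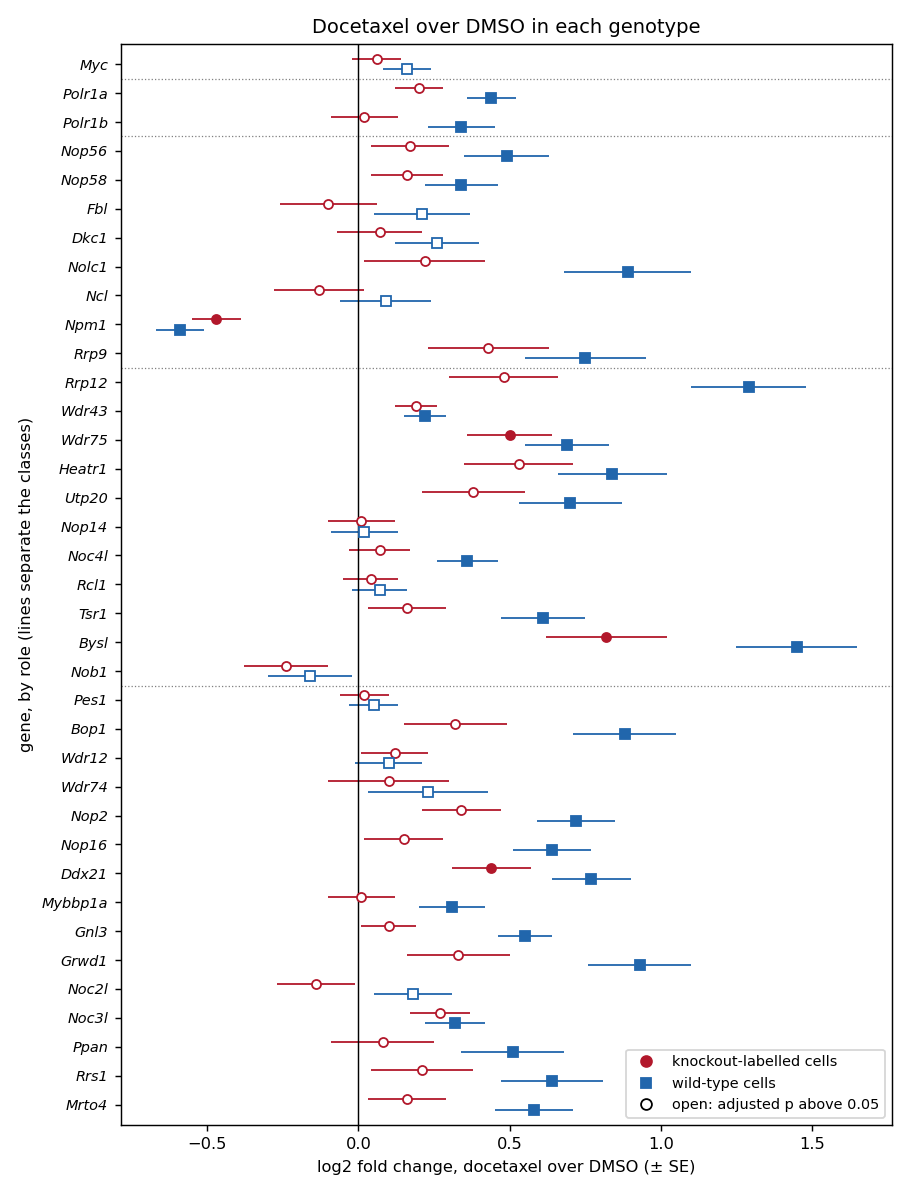
Points are log2 fold changes of docetaxel over DMSO with their standard errors for each of the 37 genes, by role, in knockout-labelled cells (circles) and wild-type cells (squares), and filled points passed edgeR's test. Wild-type values run from −0.59 (Npm1) to 1.45 (Bysl) and knockout-labelled values from −0.47 (Npm1) to 0.82 (Bysl).

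Both RNA polymerase I genes rose with docetaxel in wild-type cells and neither passed in knockout-labelled cells. Polr1a encodes the largest subunit and lies at chr6:71909053-71984935, plus strand. It had 88.5, 87.4 and 90.1 CPM in the docetaxel-treated knockout-labelled cultures, against 81.9, 75.4 and 74.0 CPM in the DMSO-treated knockout-labelled cultures, and 90.8, 84.0 and 83.5 CPM in the docetaxel-treated wild-type cultures, against 70.7, 57.8 and 62.1 CPM in the DMSO-treated wild-type cultures. Docetaxel libraries were above DMSO libraries in both genotypes, and the log2 change was 0.20 ± 0.08 in knockout-labelled cells (edgeR adjusted p = 0.12) and 0.44 ± 0.08 in wild-type cells (edgeR adjusted p = 0.002). Polr1b, the other catalytic subunit, had 52.2, 50.8 and 48.5 CPM in the docetaxel-treated knockout-labelled cultures, against 55.8, 46.4 and 46.7 CPM in the DMSO-treated knockout-labelled cultures, and the groups overlapped. In wild-type cells it had 51.4, 44.8 and 49.8 CPM with docetaxel and 44.5, 33.8 and 37.3 CPM with DMSO, without overlap, at a log2 change of 0.34 ± 0.11 (edgeR adjusted p = 0.0323). The Polr1b call was lost without wild-type docetaxel library 1 or 3 (adjusted p = 0.114 and 0.0985) or wild-type DMSO library 2 or 3 (0.12 and 0.0927), and the Polr1a call held without each library in turn.

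Among the 8 snoRNP and nucleolar phosphoprotein genes, 4 rose and 1 fell in wild-type cells, and 1 fell in knockout-labelled cells. Nolc1, which encodes the phosphoprotein Nopp140 that escorts snoRNPs, had 134, 145 and 139.7 CPM in the docetaxel-treated wild-type cultures, against 101, 48.0 and 76.8 CPM in the DMSO-treated wild-type cultures, a log2 change of 0.89 ± 0.21 (edgeR adjusted p = 0.00577). In knockout-labelled cells its values were 124, 179 and 151 CPM with docetaxel and 153, 118 and 118 CPM with DMSO, which overlapped (edgeR adjusted p = 0.497). Wild-type DMSO library 2 held the lowest Nolc1 value and knockout-labelled docetaxel library 2 the highest. Rrp9, a protein of the U3 snoRNP, had 38.1, 45.3 and 42.5 CPM in the docetaxel-treated wild-type cultures, against 31.9, 16.2 and 26.8 CPM in the DMSO-treated wild-type cultures (0.75 ± 0.20, edgeR adjusted p = 0.0125), and 39.6, 50.9 and 41.9 CPM in the docetaxel-treated knockout-labelled cultures, against 39.2, 26.7 and 32.6 CPM in the DMSO-treated knockout-labelled cultures (0.43 ± 0.20, edgeR adjusted p = 0.159). The other genes of the class called higher in wild-type cells encode the box C/D core proteins Nop56 (0.49 ± 0.14) and Nop58 (0.34 ± 0.12), and both calls failed when wild-type DMSO library 2 (adjusted p = 0.0581 and 0.145) or 3 (0.0617 and 0.147) was left out. The Nop58 call was made in 3 of the 12 fits that left out 1 library. It also failed with RLE scaling (adjusted p = 0.0501), upper-quartile scaling (0.0602) and the libraries of the comparison alone (0.0715). Fbl, the methyltransferase of box C/D snoRNPs, had a wild-type log2 fold change of 0.21 ± 0.16, Dkc1, the pseudouridine synthase of H/ACA snoRNPs, one of 0.26 ± 0.14, and Ncl one of 0.09 ± 0.15, and none of these passed.

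Npm1 went the other way in both genotypes. It lies at chr11:33152287-33163206, minus strand. Its level was 1501, 1610.3 and 1642 CPM in the docetaxel-treated knockout-labelled cultures, against 2122, 2276 and 2196 CPM in the DMSO-treated knockout-labelled cultures, and 1449, 1591 and 1446 CPM in the docetaxel-treated wild-type cultures, against 2119.8, 2260.5 and 2381 CPM in the DMSO-treated wild-type cultures. Every docetaxel library lay below every DMSO library, across genotypes too. It fell by a log2 change of −0.47 ± 0.08 in knockout-labelled cells (edgeR adjusted p = 0.0017) and −0.59 ± 0.08 in wild-type cells (edgeR adjusted p = 0.000244), and both calls held without each library in turn. Npm1 was also the most abundant of the 37 genes per length, and wild-type DMSO library 2, the lowest library for most of them, was not low for Npm1.

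The small-subunit class held the largest fold changes, with 2 of 11 genes called higher in knockout-labelled cells and 8 of 11 in wild-type cells. Bysl (ENSMUSG00000023988.8; chr17:47599331-47611492, minus strand), whose promoter stretch is printed above, encodes bystin, a factor of late nuclear small-subunit precursors. It had 36.2, 43.6 and 36.5 CPM in the docetaxel-treated knockout-labelled cultures, against 27.7, 16.1 and 22.0 CPM in the DMSO-treated knockout-labelled cultures, and 34.3, 32.6 and 33.0 CPM in the docetaxel-treated wild-type cultures, against 16.4, 9.01 and 11.3 CPM in the DMSO-treated wild-type cultures. The groups did not overlap in either genotype, and the log2 change was 0.82 ± 0.20 (edgeR adjusted p = 0.0114) in knockout-labelled cells and 1.45 ± 0.20 (edgeR adjusted p = 0.000231) in wild-type cells. The knockout-labelled call was lost without knockout-labelled DMSO library 2 (adjusted p = 0.0588) and held without each other library, and the wild-type call held without each of the 12. Rrp12, a repeat protein of small-subunit maturation and export, had 37.1, 36.9 and 37.7 CPM in the docetaxel-treated wild-type cultures, against 20.8, 10.7 and 14.1 CPM in the DMSO-treated wild-type cultures, at a log2 change of 1.29 ± 0.19 (edgeR adjusted p = 0.000331). In knockout-labelled cells it had 38.6, 41.8 and 37.6 CPM with docetaxel and 34.9, 23.5 and 26.2 CPM with DMSO, also without overlap, at 0.48 ± 0.18 (edgeR adjusted p = 0.0933).

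Wdr75, a processome subunit that also acts in transcription of the precursor, had 78.5, 59.6 and 65.7 CPM in the docetaxel-treated knockout-labelled cultures, against 55.0, 40.9 and 48.2 CPM in the DMSO-treated knockout-labelled cultures, and 64.1, 50.3 and 56.6 CPM in the docetaxel-treated wild-type cultures, against 41.1, 34.7 and 30.5 CPM in the DMSO-treated wild-type cultures. It rose on the log2 scale by 0.50 ± 0.14 in knockout-labelled cells (edgeR adjusted p = 0.0268) and 0.69 ± 0.14 in wild-type cells (edgeR adjusted p = 0.00309). Within each docetaxel group library 1 had the most Wdr75, as it did for Heatr1 and Utp20. The knockout-labelled call was lost without knockout-labelled docetaxel library 1 or 3 (adjusted p = 0.114 and 0.0604) or knockout-labelled DMSO library 2 or 3 (0.131 and 0.0811). Heatr1, of the same processome module, had log2 fold changes of 0.53 ± 0.18 in knockout-labelled cells, which did not pass, and 0.84 ± 0.18 in wild-type cells, which did (edgeR adjusted p = 0.0563 and 0.00363). Utp20 rose in wild-type cells by a log2 change of 0.70 ± 0.17, Tsr1, a late factor related to GTPases, by 0.61 ± 0.14, Noc4l by 0.36 ± 0.10 and Wdr43, also of the transcription-linked module, by 0.22 ± 0.07. Nop14, the partner of Noc4l, did not pass at 0.02 ± 0.11, nor did Rcl1 at 0.07 ± 0.09 or Nob1 at −0.16 ± 0.14. Nob1 was low in the docetaxel-treated knockout-labelled cultures, at 34.9, 49.8 and 43.3 CPM, and uneven in the DMSO-treated wild-type cultures, at 55.9, 50.8 and 72.5 CPM.

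Of the 15 large-subunit genes, 1 rose in knockout-labelled cells and 11 in wild-type cells, and none fell. Ddx21, an RNA helicase of the nucleolus, had 229.5, 219 and 219 CPM in the docetaxel-treated knockout-labelled cultures, against 185, 152 and 154 CPM in the DMSO-treated knockout-labelled cultures, and 209, 184 and 187 CPM in the docetaxel-treated wild-type cultures, against 138, 91.4 and 111 CPM in the DMSO-treated wild-type cultures. The groups did not overlap in either genotype, and the log2 change was 0.44 ± 0.13 in knockout-labelled cells (edgeR adjusted p = 0.0286) and 0.77 ± 0.13 in wild-type cells (edgeR adjusted p = 0.000726). The knockout-labelled call was lost without knockout-labelled docetaxel library 1 or 3 (adjusted p = 0.0769 and 0.0712) or knockout-labelled DMSO library 2 or 3 (0.122 and 0.108). Grwd1, a WD-repeat protein of large-subunit precursors with an E-box in the sequence shown, had 35.4, 30.7 and 33.9 CPM in the docetaxel-treated wild-type cultures, against 23.4, 14.9 and 14.4 CPM in the DMSO-treated wild-type cultures (0.93 ± 0.17, edgeR adjusted p = 0.00163). In knockout-labelled cells Grwd1 had 33.7, 36.3 and 34.0 CPM with docetaxel and 34.2, 24.7 and 23.9 CPM with DMSO, where DMSO library 1 reached the docetaxel values (edgeR adjusted p = 0.211). The same DMSO library stood above its replicates for Nolc1, Rrp12, Bysl and Bop1 as well.

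Of the PeBoW complex, formed by Pes1, Bop1 and Wdr12, only Bop1 was called with docetaxel, in wild-type cells. Bop1 had 62.9, 59.8 and 65.9 CPM in the docetaxel-treated wild-type cultures, against 46.8, 24.8 and 31.0 CPM in the DMSO-treated wild-type cultures, and rose on the log2 scale by 0.88 ± 0.17 (edgeR adjusted p = 0.00215). Pes1, at 107, 108 and 109.7 CPM with docetaxel and 113, 93.2 and 107 CPM with DMSO in wild-type cells, had 0.05 ± 0.08, with a 95% interval of −0.13 to 0.23, and Wdr12 had 0.10 ± 0.11, with −0.13 to 0.33, and neither passed. In knockout-labelled cells Bop1 had 68.7, 74.1 and 69.0 CPM with docetaxel and 64.4, 49.7 and 55.7 CPM with DMSO (0.32 ± 0.17, edgeR adjusted p = 0.223). The other large-subunit genes that rose in wild-type cells follow with their log2 changes. They were the RNA methyltransferase gene Nop2 (0.72 ± 0.13), Nop16 (0.64 ± 0.13), Rrs1, which helps to load the small RNA of the large subunit (0.64 ± 0.17), Mrto4 (0.58 ± 0.13), the nucleostemin gene Gnl3 (0.55 ± 0.09), Ppan (0.51 ± 0.17), Noc3l (0.32 ± 0.10) and Mybbp1a (0.31 ± 0.11). Noc2l, the partner of Noc3l, did not pass at 0.18 ± 0.13, nor did Wdr74 at 0.23 ± 0.20. Of the genes with a promoter in the table, 6 of the 22 called higher in wild-type cells held CACGTG, as did 1 of the 9 others (Pes1).

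**Figure D3:**
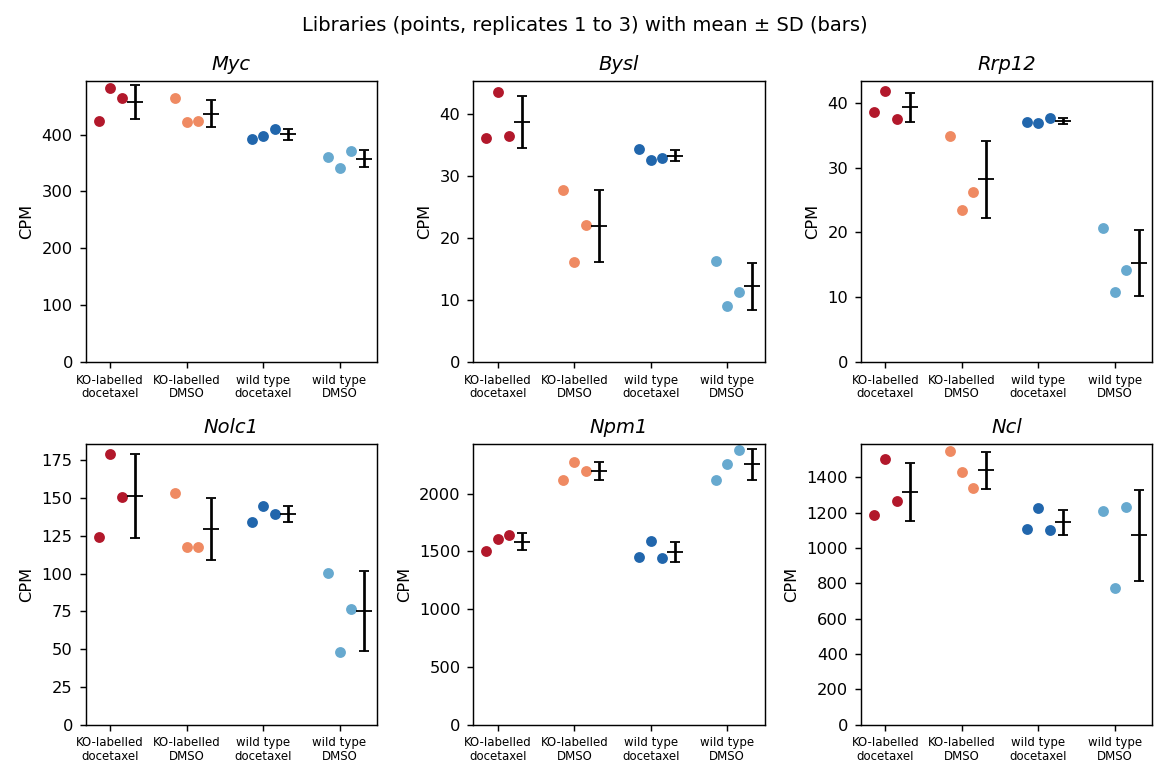
CPM in each library (points) with the mean and SD of 3 libraries for Myc, Bysl, Rrp12, Nolc1, Npm1 and Ncl in the 4 groups. Bysl and Rrp12 are lowest in wild-type DMSO libraries, Npm1 is lower in both docetaxel groups, and Ncl at 776 CPM shows how far wild-type DMSO library 2 lies from its replicates.

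Across the 37 genes, the docetaxel fold changes in the genotypes followed a like order, with a Spearman rho of 0.87 and a Pearson r of 0.89 between comparisons that share no library. The wild-type fold change had a rho of −0.39 with mean RPKM, 0.36 with transcript GC content and 0.05 with exon length. These are descriptions over genes, which share libraries and are not independent. The within-library trend with GC content, evaluated at the median GC content of the 37 genes, was −0.06 to 0.06 on the log2 scale in every library. That point, 51.2%, lies near the median of 50% of tested protein-coding genes. The 37 ran from 40.4% to 59.9%, so it does not describe the trend over all of them. With a correction for this trend 8 of the 37 were called higher with docetaxel in knockout-labelled cells (background 11.6%) and 26 in wild-type cells (background 18.3%). The medians were 0.17 and 0.45. With the correction 22 were called higher in knockout-labelled than in wild-type cells under DMSO (background 8.57%), at a median of 0.35.

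The wild-type docetaxel changes were more positive than the knockout-labelled ones in 35 of the 37 genes (36 without wild-type DMSO library 1 and 31 without library 2), yet none of the 37 passed the test of the difference between the genotypes. The median interaction, knockout-labelled minus wild-type docetaxel log2 fold change, was −0.31 over the 37 and 0.00 over all tested genes. The interaction, the wild-type docetaxel change and the genotype difference under DMSO all use the same wild-type DMSO libraries, so they are not independent. The median of the 37 was −0.43 without wild-type DMSO library 1, −0.19 without wild-type DMSO library 2 and −0.27 without wild-type DMSO library 3. By edgeR's test 0 of the 37 passed (background 0.109% of tested genes, 0.0901% positive and 0.0193% negative), DESeq2 also called 0, and 9 had an unadjusted p below 0.05, as had 11% of all tested genes. Rrp12 had the largest value, at −0.81 ± 0.26 (edgeR adjusted p = 0.33), Nolc1 had −0.67 ± 0.29 (0.423), Bysl −0.63 ± 0.28 (0.434) and Gnl3 −0.45 ± 0.13 (0.244). For Myc it was −0.10 ± 0.11 (95% interval −0.34 to 0.14) and for Npm1 0.12 ± 0.12 (−0.13 to 0.37). The count depended on 1 library and on the filter. Without wild-type DMSO library 1, whose description names the knockout, Rrp12, Tsr1, Bop1, Nop2, Gnl3 and Grwd1 passed, at −1.10 for Rrp12 and −0.53 for Gnl3 (edgeR adjusted p = 0.0184 and 0.0348). In that fit 1.32% of all tested genes were called positive and 1.38% negative. Without wild-type DMSO library 2, or without any other single library, 0 passed. With no filter on low counts 5 did, where 0.906% of all tested genes were called positive and 0.578% negative.

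Under DMSO the knockout-labelled cells had more of these transcripts than wild-type cells: 14 of the 37 were called higher and 0 lower. Over all tested genes 6.6% were higher and 9.2% lower. The median log2 difference was 0.38, against 0.01 for all tested genes. It was 0.52 without wild-type DMSO library 1, 0.25 without wild-type DMSO library 2 and 0.34 without wild-type DMSO library 3. For 21 of the 37 every knockout-labelled library lay above every wild-type library (background 15.7%), and for 0 below (background 16.9%). The called genes were Myc, both polymerase genes (Polr1a 0.28 ± 0.08, Polr1b 0.37 ± 0.11), Nolc1 (0.79 ± 0.21), the small-subunit genes Rrp12 (0.89 ± 0.19, edgeR adjusted p = 0.00602) and Bysl (0.84 ± 0.20, 0.0115), and 8 large-subunit genes. The last were Bop1 (0.73 ± 0.17), Grwd1 (0.65 ± 0.17), Gnl3 (0.54 ± 0.09, edgeR adjusted p = 0.00111), Ddx21 (0.53 ± 0.13), Mrto4 (0.48 ± 0.13), Nop16 (0.45 ± 0.13), Noc2l (0.44 ± 0.13) and Mybbp1a (0.35 ± 0.11). Gnl3 had 112, 110.2 and 107 CPM in the DMSO-treated knockout-labelled cultures, against 83.5, 70.9 and 72.4 CPM in the DMSO-treated wild-type cultures, with little spread in either group. Ncl, at 1552, 1430.0 and 1342 CPM in the DMSO-treated knockout-labelled cultures, against 1210.2, 776 and 1233 CPM in the DMSO-treated wild-type cultures, did not pass (0.43 ± 0.15, edgeR adjusted p = 0.0696), nor did Npm1 (−0.04 ± 0.08) or Nob1 (−0.24 ± 0.14).

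These calls rested on few libraries. Without wild-type DMSO library 2 the count was 6 (background 3.57% called higher), and without knockout-labelled DMSO library 1 it was 2 (background 2.88%). Without knockout-labelled DMSO library 3 it was 7 (background 3.79%), and without wild-type DMSO library 1 it was 26 (background 9.35%). Rrp12 and Gnl3 were the genes called whichever library was left out. With DESeq2 24 were called (background 8.27%), and with the libraries of the comparison alone 7 (background 3.92%).

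After docetaxel none of the 37 differed between the genotypes by edgeR's test, either way (background 5.89%, with 2.5% higher and 3.39% lower), and DESeq2 called 0. An unadjusted p below 0.05 was found for 3, Myc, Rcl1 and Nob1, and for 18.1% of all tested genes. The median log2 difference was 0.08, against 0.01 for all tested genes, and values ran from −0.32 for Nob1 to 0.25 for Wdr75. Every knockout-labelled library lay above every wild-type library for 7 of the 37 (background 11.9%) and below for Nob1 (background 13.2%). For Rrp12 the difference was 0.08 ± 0.18 (95% interval −0.31 to 0.47), for Bysl 0.22 ± 0.19 (−0.19 to 0.63) and for Gnl3 0.09 ± 0.09 (−0.10 to 0.28).

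**Figure D4:**
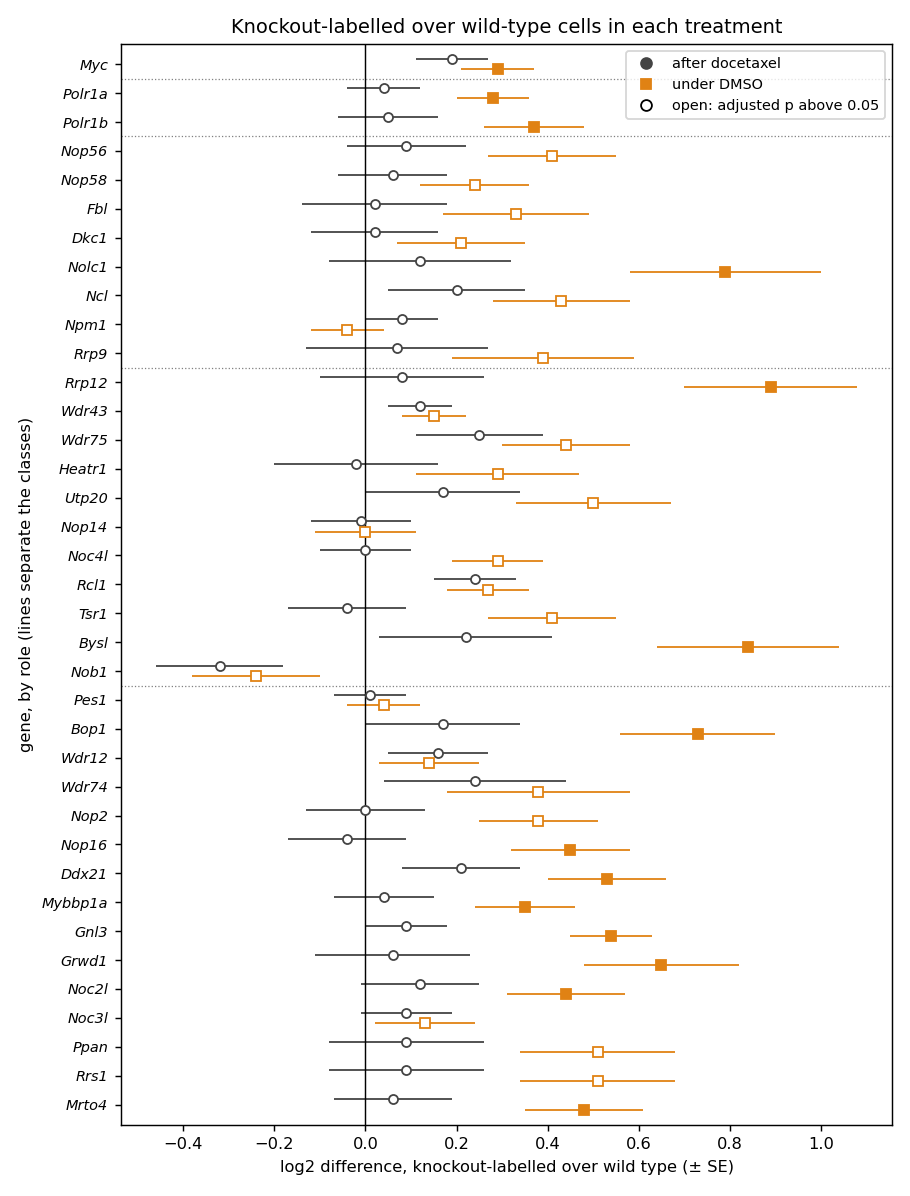
Points are log2 differences of knockout-labelled over wild-type cells with their standard errors for each of the 37 genes, by role, after docetaxel (circles) and under DMSO (squares), and filled points passed edgeR's test. All filled points are squares, up to 0.89 for Rrp12, and values after docetaxel run from −0.32 to 0.25.

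The docetaxel calls were repeated without each library. In wild-type cells 17 to 26 of the 37 were then called higher (background 9.91% to 15.3%). Of the 26 called genes, Npm1 among them, 18 kept their call every time. The 18 were Polr1a, Nolc1, Npm1, Rrp9, Rrp12, Wdr75, Heatr1, Utp20, Tsr1, Bysl, Bop1, Nop2, Nop16, Ddx21, Gnl3, Grwd1, Rrs1 and Mrto4. The calls of Polr1b, Nop56, Nop58, Wdr43, Noc4l, Mybbp1a, Noc3l and Ppan were each lost without at least 1 library, and all of them failed when wild-type DMSO library 3 was left out (adjusted p = 0.0601 to 0.147). Without wild-type DMSO library 2 the count was 18 (background 11.6%). Without both that library and knockout-labelled docetaxel library 3, each the richest of its group in Gm23935, it was 17 (background 9.81%). The median log2 fold change was then 0.34. Gm23935 took 0.856%, 0.293% and 1.51% of counts in the knockout-labelled docetaxel, 0.152%, 0.137% and 0.177% in the knockout-labelled DMSO, 0.22%, 0.217% and 0.192% in wild-type docetaxel, and 1.62%, 3.98% and 0.435% in the wild-type DMSO libraries. In knockout-labelled cells the count of 3 became 0 without knockout-labelled DMSO library 2 (background 5.01% called higher). It was 1 without knockout-labelled DMSO library 3 (background 5.46%) or knockout-labelled docetaxel library 1 or 3 (6.09% and 5.67%). It was 5 without knockout-labelled docetaxel library 2 (9.88%), and 6 without wild-type DMSO library 1 or 2 (9.87% and 10%), which belong to neither group of that comparison. Npm1 alone was called whichever library was left out.

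**Figure D5:**
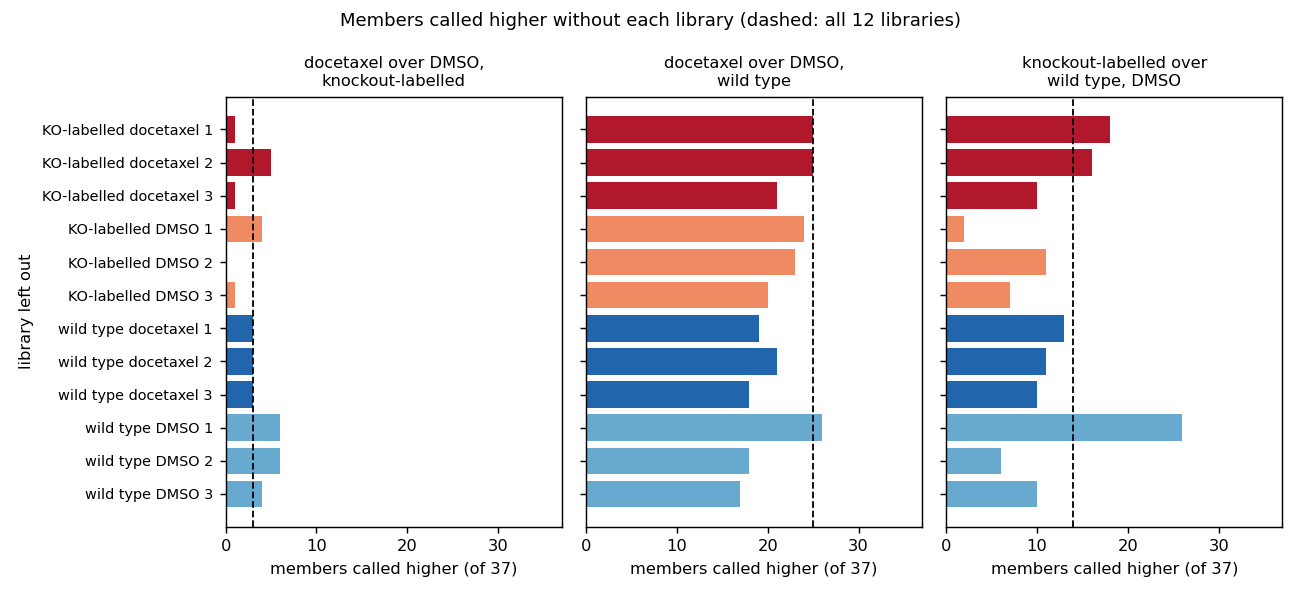
Bars give how many of the 37 genes were called higher when 1 library (down the page) was left out, for docetaxel in knockout-labelled cells, docetaxel in wild-type cells and knockout-labelled over wild-type cells under DMSO, and dashed lines mark the counts with all 12 libraries. The counts run from 0 to 6, from 17 to 26 and from 2 to 26.

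Other genes of the pathway, from lists made by function, were set beside the 37. Over all tested genes 9.09% rose and 7% fell with docetaxel in knockout-labelled cells, and 14.5% rose and 13.8% fell in wild-type cells. These shares are the background of each docetaxel count of the further lists. In knockout-labelled cells the 2 of 17 polymerase genes and the 5 of 39 small-subunit genes that rose were near it. In wild-type cells docetaxel raised 9 of 17 further RNA polymerase I and ribosomal DNA transcription genes and lowered 1, and in knockout-labelled cells it raised 2 and lowered 0, with medians of 0.07 in knockout-labelled and 0.37 in wild-type cells. Polr1e, another polymerase subunit, rose in wild-type cells by a log2 change of 0.92 ± 0.16 and Taf1a, of the promoter selectivity factor, by 0.62 ± 0.16, while Taf1b of the same factor fell by a log2 change of −0.74 ± 0.13 (edgeR adjusted p = 0.000902, 0.0115 and 0.0013). In knockout-labelled cells Rrn3, the initiation factor TIF-IA, rose on the log2 scale by 0.49 ± 0.10 (edgeR adjusted p = 0.00451) and Utp4 by 0.43 ± 0.13 (0.0326). In wild-type cells Rrn3 was also called with docetaxel in each of the 12 fits that left out 1 library, and Utp4 in 8. Of 14 further snoRNP genes, 2 rose and 1 fell in knockout-labelled cells and 3 rose in wild-type cells. Znhit3, a snoRNP assembly factor, rose on the log2 scale by 0.44 ± 0.14 in knockout-labelled and 0.96 ± 0.14 in wild-type cells, and Nhp2, a core H/ACA protein, by 0.86 ± 0.10 in wild-type cells (edgeR adjusted p = 0.0483, 0.000376 and 5.15e-05). In knockout-labelled cells the assembly factors Nufip1 and Pih1d1 went apart, at 0.39 ± 0.11 and −0.36 ± 0.10, both called. Without at least 1 library the calls of Utp4, Nufip1, Pih1d1 and, in knockout-labelled cells, Znhit3 were lost, with highest adjusted p values of 0.149, 0.134, 0.125 and 0.17.

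Of 39 further small-subunit genes, 5 rose and 0 fell in knockout-labelled cells (background 9.09% and 7%), and 18 rose and 1 fell in wild-type cells (background 14.5% and 13.8%). The medians were 0.09 and 0.26. Pno1, a late small-subunit factor that works with Nob1, had 29.1 ± 7.62 CPM with docetaxel and 14.9 ± 0.390 CPM with DMSO in knockout-labelled cells (SD, n = 3), and 26.3 ± 2.64 and 13.0 ± 1.04 CPM in wild-type cells. It rose on the log2 scale by 0.97 ± 0.15 and 1.02 ± 0.15 in the knockout-labelled and wild-type cells (edgeR adjusted p = 0.000685 and 0.000376), beside 0.82 and 1.45 for Bysl. Mphosph10, of the U3 snoRNP, rose on the log2 scale by 0.57 ± 0.16 and 1.00 ± 0.16, and its partner Imp3 fell in wild-type cells by a log2 change of −0.42 ± 0.09 (edgeR adjusted p = 0.0253, 0.00063 and 0.00264). Of 48 further large-subunit genes, 10 rose and 2 fell in knockout-labelled cells, and 23 rose and 2 fell in wild-type cells (medians 0.18 and 0.37). In wild-type cells Urb1 rose on the log2 scale by 0.90 ± 0.14 and Mdn1, the large ATPase that strips assembly factors, by 0.89 ± 0.19. In knockout-labelled cells the helicase gene Ddx24 rose on the log2 scale by 0.62 ± 0.07 and Nol8 by 0.57 ± 0.12. In wild-type cells Ddx24 was also called in each of the 12 fits that left out 1 library, and Nol8 in 11. Urb1 was called in 8 of the 12 fits in knockout-labelled cells, and Mdn1 in 0. Nsa2 and Nop53 fell in both genotypes, with log2 changes for Nsa2 of −0.38 ± 0.10 and −0.56 ± 0.10 and for Nop53 of −0.57 ± 0.18 and −0.55 ± 0.18 in knockout-labelled and wild-type cells. Lost without at least 1 library were the knockout-labelled calls of Mphosph10 (highest adjusted p = 0.0996), Nsa2 (0.0837) and Nop53 (0.18) and the wild-type call of Nop53 (0.163).

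The network of MYC partners and rivals was divided: of 17 tested genes (of 19 listed) 4 rose and 2 fell in knockout-labelled cells (background 9.09% and 7%), and 5 rose and 2 fell in wild-type cells (background 14.5% and 13.8%). The medians were 0.01 and −0.03. Mycl, a paralogue of Myc, had 22.8 ± 4.02 CPM with docetaxel and 15.1 ± 1.08 CPM with DMSO in knockout-labelled cells, and 15.4 ± 3.30 CPM with docetaxel and 9.76 ± 0.624 CPM with DMSO in wild-type cells (SD, n = 3), and rose in the knockout-labelled and wild-type cells by log2 changes of 0.60 ± 0.16 and 0.66 ± 0.16. Mxi1, a MAX partner that opposes MYC, fell in both genotypes (log2 changes of −0.34 ± 0.08 and −0.34 ± 0.08), and of the same family Mxd1 fell in knockout-labelled cells (−0.29 ± 0.09) and Mxd4 in wild-type cells (−0.56 ± 0.15). Mlx, a related dimerisation partner, rose in wild-type cells by a log2 change of 0.87 ± 0.15, and the kinase gene Pim1 in knockout-labelled cells by 0.65 ± 0.17. Mlx was also called in knockout-labelled cells in 9 of the 12 fits that left out 1 library, and Pim1 in wild-type cells in 0. Of 35 known MYC targets outside ribosome assembly, 6 rose and 2 fell in knockout-labelled cells, and 15 rose and 3 fell in wild-type cells (medians 0.09 and 0.31). Nme1, a nucleotide kinase gene, rose in wild-type cells by a log2 change of 0.94 ± 0.19 and the spermidine synthase gene Srm by 0.79 ± 0.14. In knockout-labelled cells the ornithine decarboxylase gene Odc1 rose on the log2 scale by 0.55 ± 0.11 and the cyclin gene Ccnd2 by 0.55 ± 0.08. Odc1 was also called in wild-type cells in each of the 12 fits that left out 1 library, and Ccnd2 in 0. In knockout-labelled cells Nme1 was called in 2 and Srm in 4 of the 12 fits. Paics, of purine synthesis, fell, with log2 changes of −0.27 ± 0.09 and −0.53 ± 0.09, as did Tfap4, with −0.39 ± 0.11 and −0.36 ± 0.11, in knockout-labelled and wild-type cells. Lost without at least 1 library were the knockout-labelled calls of Mycl, Mxi1, Mxd1, Pim1, Paics and Tfap4 (highest adjusted p = 0.0789, 0.0538, 0.14, 0.0824, 0.16 and 0.121) and the wild-type calls of Mxd4 and Tfap4 (0.0603 and 0.114).

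Of the snoRNA host genes, whose spliced RNA is mostly noncoding, 8 were tested (of 10 listed), none was called in knockout-labelled cells, and 1 rose and 4 fell in wild-type cells (medians −0.17 and −0.40). The background was 9.09% higher and 7% lower in knockout-labelled and 14.5% higher and 13.8% lower in wild-type cells. In wild-type cells Snhg5 fell by a log2 change of −1.13 ± 0.17 and Zfas1 by −1.0 ± 0.20, and Snhg20 rose on the log2 scale by 0.58 ± 0.20 (edgeR adjusted p = 0.000365, 0.0025 and 0.0409). The Snhg20 call was made in 5 of the 12 fits that left out 1 library, and the Snhg5 and Zfas1 calls in each. Their docetaxel values in knockout-labelled cells, none called, were −0.14 ± 0.17 for Snhg5 and −0.59 ± 0.20 for Zfas1. Under DMSO the knockout-labelled cells had 2 of 17 further polymerase genes, 3 of 14 snoRNP genes, 12 of 39 small-subunit genes and 10 of 48 large-subunit genes called higher than wild-type cells, with 0 called lower in each of these lists. Over all tested genes 6.6% were called higher and 9.2% lower in that comparison. Among MYC network genes 2 were higher (Mxd3 and Mycl) and 1 lower (Mxd4), among MYC targets 10 higher and 2 lower, and among snoRNA hosts 0 higher and 2 lower (Snhg5 and Snhg12). Of these named genes Snhg5 and Snhg12 were called whichever library was left out. Mycl was called in 9, Mxd3 in 7 and Mxd4 in 7 of the 12 fits that left out 1 library (highest adjusted p = 0.0668, 0.103 and 0.085). After docetaxel the same lists held 3 calls, given here after their values were seen: Taf1b (0.67 ± 0.13) and Mycl (0.57 ± 0.16) were higher and Ipo4, an importin gene among the MYC targets, was lower (−0.36 ± 0.08). The background there was 2.5% higher and 3.39% lower. The Taf1b call was made in each of the 12 fits, the Ipo4 call in 10 and the Mycl call in 3 (highest adjusted p = 0.0451, 0.0824 and 0.19). Of the 178 tested genes of these lists, 0 passed edgeR's test of the difference between docetaxel effects. DESeq2 called 2 of them, Nhp2 (knockout-labelled minus wild-type log2 change −0.57, adjusted p = 0.0185) and Snhg5 (1.0, 0.0122). With no filter on low counts 7 passed edgeR's test (background 0.906% positive and 0.578% negative), Nhp2 and Snhg5 among them. Without wild-type DMSO library 1, 14 passed (background 1.32% positive and 1.38% negative), among them Nhp2 (edgeR adjusted p = 0.0183), Snhg5 (0.00442), Polr1e, Taf1b and Ccnd2. Without each other single library 0 passed.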

How the data were processed

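Ribosomal RNA was removed with an RNase H kit and libraries were read in pairs of 150 bases, per the labels' protocols, and bcl2fastq, STAR 2.5.1a and featureCounts 1.4.6-p5 (Subread) are named in the submitters' processing notes. The build, annotation and strand setting of the counting were not given in the sources used here. Raw counts per gene symbol, in 1 column per library, were deposited by the authors. Of 40757 entries, 351 repeated another (0.907% of counts) and were removed. The symbols of 40328 entries matched GENCODE release M21 on GRCm38, from which positions, length and GC content were taken.

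The test was edgeR 4.0.16 under R 4.3.3 (filterByExpr, TMM, 1 mean for each of 4 groups over 12 libraries, quasi-likelihood test, Benjamini-Hochberg adjustment over 15538 genes in each of 5 comparisons, called at 0.05, two-sided). The common biological coefficient of variation was 13.2%. Each SE is the absolute log2 fold change over the square root of F, and CPM use TMM-scaled totals. The members, the 37 genes described, had a median count per library of 1396 to 3439. Alternatives were DESeq2 1.42.0, RLE and upper-quartile scaling, no filter, at least 1 CPM in 3 libraries, a lowess GC correction (span 0.3), the libraries of a comparison alone, the replicate number as a block, and leaving out each library or both libraries richest in Gm23935. Orders of group means without wild-type DMSO library 1 or 2, and interaction calls of the further lists under each alternative, were added after seeing the data. Figures were drawn with matplotlib 3.10.9.

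The members, lists and alternatives were chosen with earlier results of these data known. Values per library are given for Myc, for the 2 called members of each role with the largest docetaxel change in each genotype, and for up to 5 called members by size of each genotype comparison, with others shown for contrast after their values were seen. From each further list up to 2 called genes per direction and genotype were named, with a mean of at least 5 CPM.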

Additional observations from a re-analysis of the deposited data

How the results depend on the processing

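None of the fold changes, counts and alternatives computed here turned a called direction round. RLE and upper-quartile scaling and the filter at 1 CPM left the counts within 1.5 times. For docetaxel in knockout-labelled cells, where 3 members were called higher, DESeq2 called 5 (background 10.1%), the GC correction 8 (11.6%), no filter 9 (5.95%) and the libraries of the comparison alone 7 (10.4%). There the omission of each library gave 0 to 6, with 1311 to 2881 genes called in all. For docetaxel in wild-type cells the omission of each library gave 3035 to 4824 genes. For the interaction, where 17 genes and 0 members were called, DESeq2 called 154 genes, the GC correction 39, no filter 421 with 5 members lower (Nolc1, Rrp12, Bysl, Bop1 and Grwd1), the fit without the Gm23935-rich libraries 4, and the omission of each library 2 to 431 with 0 to 6 members lower. A fit on the libraries of the comparison alone is the same as the reported one there. For the genotypes under DMSO, with 14 members higher, DESeq2 called 24 (background 8.27%), the GC correction 22 (8.57%), no filter 24 (4.64%) and the libraries of the comparison alone 7 (3.92%). The fit without the Gm23935-rich libraries called 1267 genes there and 2 members (background 2.78% called higher). The omission of each library gave 1264 to 3273 genes and 2 to 26 members. After docetaxel the GC correction called 1 member higher (background 3.51%), the fit without the Gm23935-rich libraries 565 genes, and the omission of each library 467 to 1083 genes. The cause of these shifts was not tested.

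The replicate numbers were checked as pairs. Deviations of libraries with the same number correlated at −0.19 to 0.35, not all above 0.1, so the reported fit used no pairs. Between the docetaxel groups, same-numbered libraries 1, 2 and 3 correlated at 0.35, 0.22 and 0.03, against −0.28 to 0.08 for unlike numbers. What same-numbered libraries share was not tested. With the replicate block, 6 members were called higher with docetaxel in knockout-labelled cells (background 9.63%), and the interaction called 48 genes, while Ppan with docetaxel in wild-type cells (edgeR adjusted p = 0.0542) and Noc2l between the genotypes under DMSO (0.0569) were not called. With the block and the GC correction together, 11 members were called with docetaxel in knockout-labelled cells (background 12.4% called higher). The interaction called 108 genes with 1 member lower (Gnl3) and, of the further lists, Nhp2 and Pim1. Under DMSO 25 members were higher in knockout-labelled cells (background 9.22%), and after docetaxel 1464 genes were called with 2 members higher (background 3.91%). Not every library correlated best with its own number.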
